A study of Homo sapiens with 32 samples.

Results

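MCF10A is a non-tumorigenic human breast epithelial cell line that is widely used to study how epithelial cells respond to DNA damage. The results below concern wild-type (WT) MCF10A cells 3 days after 10 Gy of ionizing radiation, set against untreated WT MCF10A cells. They rest on 4 of the 32 libraries of the series, chosen by their sample labels alone, and cover every gene in the count table. The tested cells received 10 Gy and DMSO, a solvent used as a drug vehicle, and were collected after 3 days. The untreated cells carry no vehicle in their label and no collection time. DMSO, the time in culture and radiation therefore cannot be told apart. All cells grew in medium with horse serum, epidermal growth factor, insulin, cholera toxin and hydrocortisone, a glucocorticoid, and the medium was renewed during the days after treatment.

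Ionizing radiation breaks both DNA strands. The break-sensing kinases stabilize the transcription factor p53, which switches on genes that halt the cell cycle, repair DNA, promote cell death and, through MDM2, degrade p53 itself. Cells that pass into mitosis with broken chromosomes can form micronuclei, whose DNA can be read by the cytosolic sensor cGAS. cGAS signals through STING to interferon genes over the following days. The series addressed the sensing of damaged DNA with cells that lack cGAS, STING, the end-joining factor XRCC4 or p53. Its first MCF10A experiment held 14 libraries in 7 groups: the irradiated and untreated WT cells described here and, all 5 days after 10 Gy, WT cells with DMSO, WT cells with CDK1i, and cGAS knockout (KO), STING KO and XRCC4 KO cells. Its second held 12 libraries, all 3 days after 10 Gy, of p53 KO cells, XRCC4 KO cells and XRCC4 p53 double KO cells, the last 2 genotypes with and without ATRi, and of WT cells. CDK1i and ATRi are the labels' names for the drugs, inhibitors of the mitotic kinase CDK1 and of the damage kinase ATR, which were given before irradiation and kept on. The KO cells were made with lentiviral Cas9 and a guide RNA and grown from single cells, so clone and genotype cannot be told apart.

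Each group had 2 libraries. The total estimated counts were 15538666 and 5590061 in the irradiated libraries 1 and 2, and 12798186 and 9455027 in the untreated libraries 1 and 2. Throughout, 2 values of a group are given in the order library 1, library 2, in CPM (counts scaled to a common library size), with totals scaled by the trimmed mean of M values. Levels in CPM are not divided by transcript length and are not compared between genes. Whether libraries 1 and 2 stem from different cultures is not stated, so p-values here measure library-to-library spread only, which may be technical. The libraries of a group differed from each other by far more than counting error. Comparing the counts of library 1 and library 2 gene by gene, the mean chi-square was 21.5 in the irradiated and 35 in the untreated cells. In the other groups of the experiment it was 32.7 in WT cells at day 5, 45.1 in WT cells with CDK1i, 27.6 in STING KO cells, 2.95 in cGAS KO cells and 3.38 in XRCC4 KO cells. Fibronectin (FN1) gives an example, with 149 and 4887 CPM in irradiated cells against 38.4 and 1219.5 CPM in untreated cells. In both groups FN1 was far higher in library 2.

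Of 15190 genes tested, 570 were higher (3.75%) and 402 were lower (2.65%) in irradiated cells at an adjusted p below 0.05 in edgeR's quasi-likelihood test. A gene is said below to have passed, risen or fallen only on that criterion. The shares of 3.75% and 2.65% stand beside every count of list members that rose or fell. The 570 higher genes had a median log2 fold change of 1.06, and 297 of them rose more than 2-fold. The 402 lower genes had a median of -0.62, and 47 of them fell more than 2-fold. In all 972 genes (6.4% of those tested) the irradiated and the untreated libraries did not overlap. Over all genes tested, both irradiated libraries lay above both untreated libraries in 24% and below them in 24.5%. Protein-coding genes made up 86.8% of the higher genes, 96% of the lower genes and 86% of all genes tested. Long non-coding genes made up 10.5% of the higher, 2.99% of the lower and 8.78% of all genes tested.

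These counts depend on which libraries estimate the spread. The fit uses all 14 libraries of the experiment, and the spread of every group, the CDK1i and KO cells included, enters it. At an unadjusted p below 0.05 it gave 12.5% of genes higher and 11.8% lower. With the 8 WT libraries alone, 2 of them with CDK1i, 6 genes were higher and 0 lower, while 1495 genes were higher and 1179 lower at an unadjusted p below 0.05. With the 4 libraries alone, 1 gene was higher and 0 were lower, against 1207 higher and 881 lower at an unadjusted p below 0.05, and DESeq2 on the 14 libraries called 854 higher (5.97% of genes with an adjusted p) and 499 lower (3.49%). Leaving out a library gave 244 higher and 129 lower genes without irradiated library 1, 124 and 18 without irradiated library 2, 322 and 198 without untreated library 1, and 453 and 373 without untreated library 2. Untreated library 2 is the only one whose removal kept both counts within 1.5 times. CDKN1A, MDM2, TP53INP1 and SRPX2 were among the 6 genes of the 8-library fit, and SERPINB2 was the 1 gene of the 4-library fit.

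Targets of p53 rose in each of 4 functional lists. Together these lists held 76 genes, of which 75 were tested, 26 rose and 0 fell in edgeR. Their median log2 fold change was 0.70, beside -0.00212 over all genes tested, and 64 of the 75 had a positive value. Both irradiated libraries exceeded both untreated ones for 55 of the 75, and lay below them for 2, beside 24% and 24.5% of all genes tested. With the 8 WT libraries alone 3 p53 targets rose, and with the 4 libraries alone 0 rose. With limma on log2(FPKM + 0.1) or log2(FPKM + 1) 13 rose. Without a filter on low counts 47 rose and 2 fell. The number that rose was 13 without irradiated library 1, 13 without irradiated library 2, 22 without untreated library 1 and 21 without untreated library 2.

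Among the genes of arrest and feedback, 8 of 17 rose. CDKN1A encodes p21, the inhibitor of cyclin-dependent kinases that carries much of the p53-dependent arrest. It lies alone at its locus on chromosome 6, at chr6:36644237-36655116 (hg19, as the table gives it). CDKN1A had 782 and 835 CPM in irradiated cells against 162 and 115 CPM in untreated cells, a log2 fold change of 2.54 ± 0.21 (SE) with an adjusted p of 0.00048. MDM2, the ubiquitin ligase that degrades p53, had 742 and 683 CPM in irradiated cells against 215 and 166 CPM in untreated cells (log2 fold change 1.90 ± 0.16, adjusted p = 0.000483). Irradiated libraries 1 and 2 agree closely for both genes and stand well clear of the untreated ones. AC025423.2, a non-coding gene that shares the merged locus of MDM2 in the table, had 49.3 and 43.9 CPM in irradiated cells against 14.8 and 10.1 CPM in untreated cells. The protocols do not state a strand, so reads of overlapping genes such as this pair cannot be told apart. PLK2, a stress-responsive polo-like kinase, had 93.4 and 127 CPM in irradiated cells against 27.7 and 53.2 CPM in untreated cells, with a log2 fold change of 1.45 ± 0.27 (adjusted p = 0.0186, or 0.101 without irradiated library 2). BTG2, an antiproliferative factor, had 134 and 111 CPM in irradiated cells against 65.2 and 48.4 CPM in untreated cells (log2 fold change 1.11 ± 0.17, adjusted p = 0.00848). The sestrin SESN1 and the genes PLK3, TRIAP1 and RPS27L also rose.

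Of the p53 targets linked to cell death, 7 of 20 rose. TP53INP1, a stress protein that promotes p53 activity, was the most separated: 65.8 and 66.2 CPM in irradiated cells against 16.9 and 16.2 CPM in untreated cells (log2 fold change 1.99 ± 0.14, adjusted p = 0.000339). BAX, which permeabilizes the outer mitochondrial membrane, had 105 and 121 CPM in irradiated cells against 50.3 and 71.1 CPM in untreated cells (log2 fold change 0.90 ± 0.16, adjusted p = 0.013, or 0.0799 without irradiated library 2). FAS, a death receptor, had 101 and 87.7 CPM in irradiated cells against 59.6 and 52.6 CPM in untreated cells (log2 fold change 0.75 ± 0.12). TNFRSF10B, the TRAIL receptor DR5, had 480.3 and 489.9 CPM in irradiated cells against 328 and 325 CPM in untreated cells (log2 fold change 0.57 ± 0.10). EDA2R, the ectodysplasin A2 receptor, had 45.2 and 35.5 CPM in irradiated cells against 20.8 and 16.2 CPM in untreated cells. EDA2R had an adjusted p of 0.0247, but of 0.106 without irradiated library 1, 0.0657 without irradiated library 2 and 0.0836 without untreated library 2. ZMAT3, an RNA-binding protein, had 189 and 154 CPM in irradiated cells against 89.6 and 93.3 CPM in untreated cells (adjusted p = 0.0181, or 0.0798 without irradiated library 1 and 0.0643 without untreated library 1). BBC3, which encodes the BH3-only protein PUMA, had 17.4 and 14.8 CPM in irradiated cells against 16.6 and 18 CPM in untreated cells, and the groups overlapped.

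AEN, an apoptosis-enhancing nuclease, had 80.7 and 79.6 CPM in irradiated cells against 47.9 and 40.4 CPM in untreated cells (log2 fold change 0.86 ± 0.13, adjusted p = 0.00947). Its promoter is printed because it holds a match to the p53 response element close to the gene's start, and it was chosen after the matches were seen. The search was for a pair of p53 decamers with no spacer and at most 2 mismatches, on both strands, and 0.285% of 35116 promoter windows of 300 bases hold one. The sequence is the 200 bases before the start of AEN in RefSeq, at chr15:88621140-88621339 on the plus strand of GRCh38.p14, with the match in capitals, 34 bases before the start. A match of letters is a description and does not show binding.
AEN: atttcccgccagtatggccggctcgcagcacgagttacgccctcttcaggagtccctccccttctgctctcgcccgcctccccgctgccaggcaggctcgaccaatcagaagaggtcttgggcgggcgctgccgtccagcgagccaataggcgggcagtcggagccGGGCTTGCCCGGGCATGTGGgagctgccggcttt

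The DNA repair genes under p53 included RRM2B, the p53-inducible subunit of ribonucleotide reductase, and POLH, the translesion polymerase eta. RRM2B had 229 and 193 CPM in irradiated cells against 101 and 93.1 CPM in untreated cells (log2 fold change 1.12 ± 0.12, adjusted p = 0.00255). POLH had 47.3 and 48.4 CPM in irradiated cells against 23.1 and 20.9 CPM in untreated cells (log2 fold change 1.12 ± 0.13, adjusted p = 0.00262). These 2 were the members of 9 that rose. XPC and DDB2, which recognise damage in nucleotide excision repair, did not pass: XPC had 103 and 86.6 CPM in irradiated cells against 77.3 and 56.2 CPM in untreated cells. DDB2 had 81.5 and 74.8 CPM in irradiated cells against 51.8 and 43 CPM in untreated cells. Neither XPC nor DDB2 overlapped between the groups.

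In the list of metabolic and other p53 targets, 9 of 30 rose. ACER2, an alkaline ceramidase, had 6.44 and 5.83 CPM in irradiated cells against 1.17 and 0.404 CPM in untreated cells (log2 fold change 2.89 ± 0.37, adjusted p = 0.00527). PGF, placental growth factor, had 9.08 and 10.1 CPM in irradiated cells against 1.39 and 3.24 CPM in untreated cells (log2 fold change 2.08 ± 0.30, adjusted p = 0.0079). TIGAR, a fructose-2,6-bisphosphatase that slows glycolysis, had 62.6 and 64 CPM in irradiated cells against 23.4 and 17 CPM in untreated cells (log2 fold change 1.64 ± 0.14, adjusted p = 0.00053). TIGAR was tight within each group, as CDKN1A and TP53INP1 were. TRIML2, a tripartite motif family gene outside the lists that is named for its small p after the values were seen, had 7.48 and 8.75 CPM in irradiated cells against 0.586 and 0.809 CPM in untreated cells (log2 fold change 3.54 ± 0.26, adjusted p = 0.000339). GDF15, a secreted stress cytokine often used as a p53 readout, did not pass: 156 and 83.4 CPM in irradiated cells against 90.6 and 47 CPM in untreated cells (log2 fold change 0.80 ± 0.43, adjusted p = 0.286). For GDF15 library 1 was the higher in both groups, and irradiated library 2 lay below untreated library 1.

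**Figure D1:**
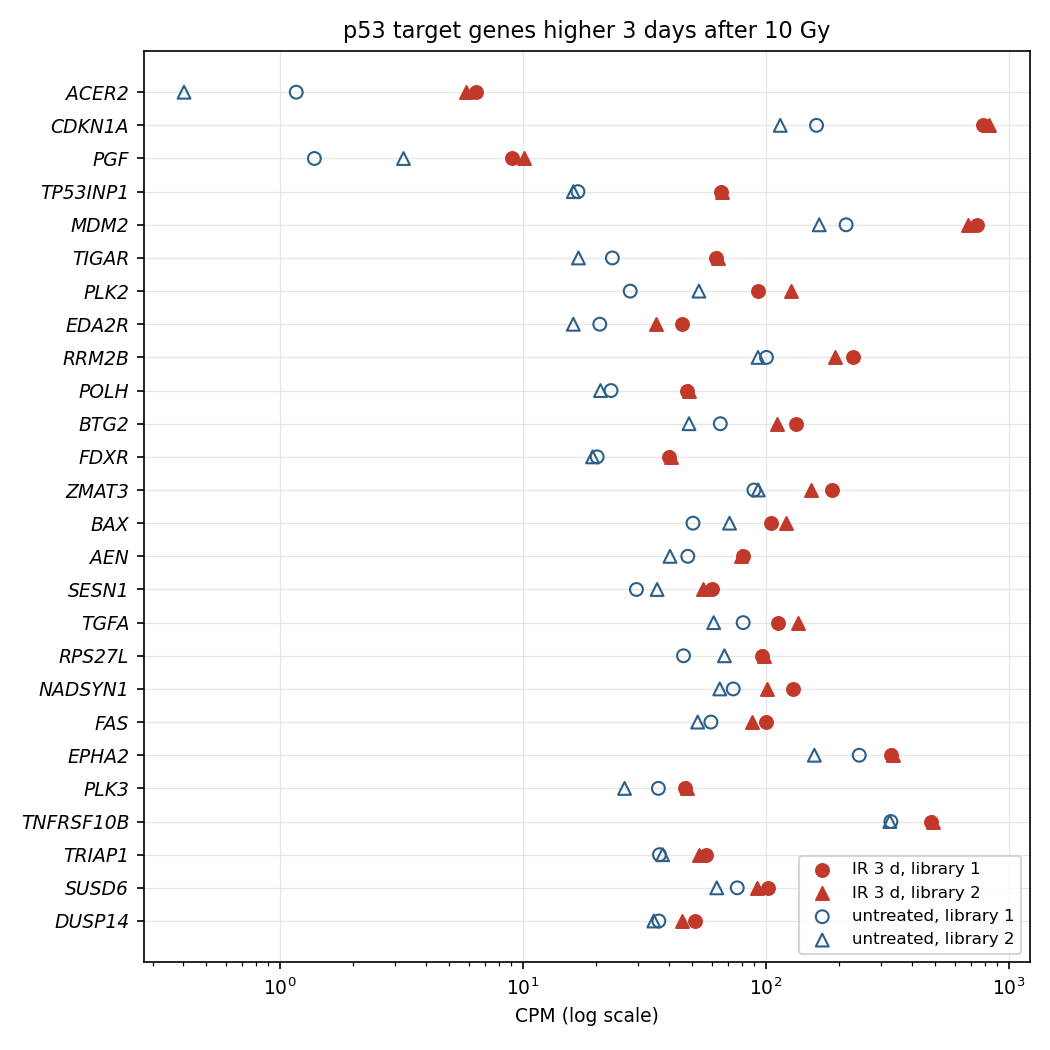
Level of the 26 p53 target genes that rose, in CPM on a log axis, with filled symbols for WT MCF10A 3 days after 10 Gy and open symbols for untreated cells, circles for library 1 and triangles for library 2. For every gene shown, both irradiated libraries lie to the right of both untreated libraries, as for all 570 genes that rose. The genes were chosen because they rose, and the share over all genes tested is 24%.

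The second experiment gave the same genes in other libraries, at the same dose and day, in p53 KO and WT cells. It was fitted separately, and its WT cells carry no DMSO label. The level of the targeted gene itself is not reported here, but CDKN1A, its direct target, had 145 and 136 CPM in p53 KO cells against 1327 and 1385 CPM in WT cells (log2 fold change -3.27 ± 0.04). Of the 570 genes higher after irradiation, 385 (67.5%) were lower in p53 KO than in WT cells and 57 (10%) were higher. Over all genes tested in both experiments, 29.4% were lower and 27.3% were higher in p53 KO cells. Of the 401 lower genes tested there, 234 (58.4%) were higher and 57 (14.2%) were lower in p53 KO cells. The clone limit stands beside all of these counts, and WT cells at the same dose and day also differed between the experiments. KRT14, a basal keratin, had 544 and 525 CPM in p53 KO cells against 43.5 and 44.8 CPM in WT cells of the second experiment. In WT cells of the first experiment KRT14 had 618 and 672 CPM after irradiation and 471 and 738 CPM untreated. The KRT14 level of the p53 KO cells was thus nearer to the first experiment's WT cells than to their own. Whether p53, the clone or the WT cells set this difference was not tested.

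All 26 p53 targets that rose after irradiation were lower in p53 KO cells, as were 67 of all 75 tested, beside 29.4% of genes tested in both experiments. MDM2 had 126 and 130.0 CPM in p53 KO cells against 707 and 660.2 CPM in WT cells. EDA2R had 4.1 and 3.02 CPM in p53 KO cells against 41.5 and 44.1 CPM in WT cells. GDF15, which did not pass after irradiation, had 18.6 and 15 CPM in p53 KO cells against 266 and 265 CPM in WT cells (log2 fold change -3.97 ± 0.07). Genes outside the p53 lists did not all follow. SERPINB2 and THBS1, both higher after irradiation, were also higher in p53 KO cells. SERPINB2 had 101 and 119 CPM in p53 KO cells against 37.4 and 38.7 CPM in WT cells, and THBS1 had 683 and 693 CPM in p53 KO cells against 351 and 351 CPM in WT cells. NLRP3 had 10.3 and 10.7 CPM in p53 KO cells against 5.4 and 5.56 CPM in WT cells.

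**Figure D2:**
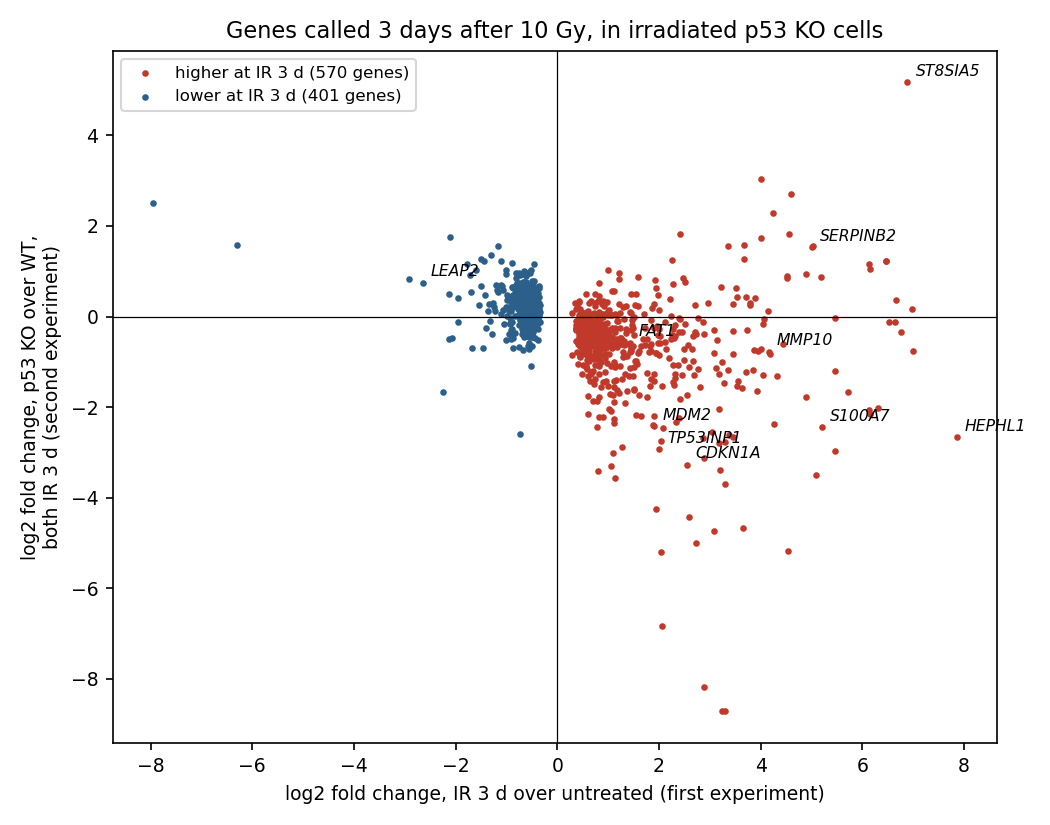
Log2 fold change of p53 KO over WT cells 3 days after 10 Gy, second experiment (vertical axis), against log2 fold change of irradiated over untreated WT cells, first experiment (horizontal axis), for the genes that rose or fell after irradiation. Most of the 570 higher genes lie below 0 on the vertical axis and most of the 401 lower genes lie above it.

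Outside the p53 lists, SRPX2, FAT1 and TM7SF3 were among the 12 higher genes with the smallest p and a mean of at least 10 CPM. SRPX2, a secreted sushi-repeat protein, had 69.3 and 72 CPM in irradiated cells against 16 and 19.2 CPM in untreated cells (log2 fold change 2.01 ± 0.15, adjusted p = 0.000379). FAT1, an atypical cadherin, had 575 and 764 CPM in irradiated cells against 256 and 239.7 CPM in untreated cells (log2 fold change 1.43 ± 0.13, adjusted p = 0.000704). Both genes kept their call when any 1 of the 4 libraries was left out, as did TM7SF3, a membrane protein, with 301 and 270.2 CPM in irradiated cells against 134 and 142 CPM in untreated cells. THBS1, thrombospondin 1, had 337 and 375 CPM in irradiated cells against 127 and 181 CPM in untreated cells (log2 fold change 1.21 ± 0.24, adjusted p = 0.0213). CYR61, a matricellular protein now also called CCN1, had 19.1 and 34.3 CPM in irradiated cells against 6.15 and 7.99 CPM in untreated cells. ACTA2, smooth muscle actin, had 25.9 and 30.9 CPM in irradiated cells against 14.1 and 18.7 CPM in untreated cells. These were 3 of the 30 genes of the extracellular matrix and mesenchymal list, whose median log2 fold change was 0.56. Over all genes tested, 3.75% rose. Both irradiated libraries lay above both untreated ones for 8 of the 30 and below them for 2, beside 24% and 24.5% of all genes. At an unadjusted p below 0.05 in edgeR, 5 of the list were higher and 1 lower, beside 12.5% and 11.8% of all genes. These shares are near those of all genes. The number of that list that rose was 1 without irradiated library 1 and 0 without irradiated library 2 or untreated library 1. THBS1, CYR61 and ACTA2 each lost their call without irradiated library 2 and without untreated library 1, among others, with adjusted p-values of up to 0.107 for THBS1, 0.199 for CYR61 and 0.121 for ACTA2 when 1 library was left out. In the table ACTA2 shares a merged locus with FAS, so their reads are uncertain.

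Laminin-332 and collagen XVII anchor basal epithelial cells to the basement membrane. LAMA3, the alpha-3 chain of laminin-332, had 2405 and 3113 CPM in irradiated cells against 1126 and 711 CPM in untreated cells (log2 fold change 1.59 ± 0.26, adjusted p = 0.0112). COL17A1 had 1616 and 1646 CPM in irradiated cells against 881 and 590.0 CPM in untreated cells (log2 fold change 1.15 ± 0.17, adjusted p = 0.00834). LAMB3, the beta-3 chain of laminin-332, did not pass, with 3065 and 3455 CPM in irradiated cells against 2493 and 1561 CPM in untreated cells (log2 fold change 0.69 ± 0.24, adjusted p = 0.115). Of the 15 tested basal epithelial markers 3 rose, LAMA3 and COL17A1 among them, and 0 fell, against 1 that rose without irradiated library 2. Keratin 5 (KRT5), the defining basal keratin, had 2761 and 2505 CPM in irradiated cells against 2318 and 2284 CPM in untreated cells and did not pass. Without irradiated library 2 the adjusted p of LAMA3 was 0.0704. LAMA3 and COL17A1 were both lower in p53 KO than in WT cells, with log2 fold changes of -0.80 for LAMA3 and -1.40 for COL17A1. Of the 15 basal markers, 9 were lower and 6 were higher in p53 KO cells.

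Of 19 tested genes of the matrix metalloproteinase and plasminogen system, 4 rose and 0 fell, with a list median of 1.18 on the log2 scale. MMP1, interstitial collagenase, had 3.68 and 10.5 CPM in irradiated cells against 0.586 and 0.404 CPM in untreated cells (log2 fold change 3.74 ± 0.75, adjusted p = 0.0209). MMP10, stromelysin 2, had 1.53 and 3.6 CPM in irradiated cells against 0.146 and 0.101 CPM in untreated cells (log2 fold change 4.16 ± 0.63, adjusted p = 0.00848). MMP3, stromelysin 1, had 0.491 and 1.72 CPM in irradiated cells and no count in untreated cells, at least 8.66-fold higher against a floor of 3 counts over the untreated group. Irradiated library 2 was the higher for all 3 genes, which share 1 merged locus on chromosome 11 in the table. SERPINB2, plasminogen activator inhibitor 2, had 26.1 and 29.3 CPM in irradiated cells against 0.952 and 0.708 CPM in untreated cells (log2 fold change 5.01 ± 1.26, adjusted p = 0.049). SERPINB2 did not pass when any 1 of the 4 libraries was left out (adjusted p up to 0.179). MMP1 (up to 0.104) and MMP3 (up to 0.151) did not pass without irradiated library 2 or without either untreated library, and the number of the list that rose was 1 without irradiated library 2 or untreated library 1 and 2 without untreated library 2. With the replicate number as a block 2 of the list rose, and MMP3 and SERPINB2 were not among them.

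The promoters of 4 of these higher genes are printed because each holds the letters TGANTCA, the core recognised by AP-1, a transcription factor of growth factor and stress signalling. Both strands were searched, the sequence being its own reverse complement, and 7.71% of 35116 promoter windows of 300 bases hold it. Of 103 named genes, 79 had a promoter in the RefSeq table, and these 4 were chosen after the matches were seen. Each sequence is the 200 bases before the gene's start in GRCh38.p14, with every match in capitals. They lie at chr11:102780629-102780828 (MMP10, minus strand), chr18:63887505-63887704 (SERPINB2, plus strand), chr18:23872820-23873019 (LAMA3, plus strand) and chrX:100643999-100644198 (SRPX2, plus strand). The match begins 67 bases before the start in MMP10, 102 in SERPINB2, 125 and 69 in LAMA3 and 109 in SRPX2.
MMP10: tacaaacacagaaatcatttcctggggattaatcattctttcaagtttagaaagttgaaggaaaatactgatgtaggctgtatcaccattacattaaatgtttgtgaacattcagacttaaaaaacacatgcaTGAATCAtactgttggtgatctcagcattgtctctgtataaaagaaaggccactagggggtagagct
SERPINB2: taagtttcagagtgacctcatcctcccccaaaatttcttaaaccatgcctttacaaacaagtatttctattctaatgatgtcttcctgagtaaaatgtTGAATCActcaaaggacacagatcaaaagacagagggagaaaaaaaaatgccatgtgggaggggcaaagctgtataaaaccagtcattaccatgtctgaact
LAMA3: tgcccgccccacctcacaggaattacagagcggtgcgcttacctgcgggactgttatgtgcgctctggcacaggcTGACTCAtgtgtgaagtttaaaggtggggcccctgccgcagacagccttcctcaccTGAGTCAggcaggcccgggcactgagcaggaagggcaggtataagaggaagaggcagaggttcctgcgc
SRPX2: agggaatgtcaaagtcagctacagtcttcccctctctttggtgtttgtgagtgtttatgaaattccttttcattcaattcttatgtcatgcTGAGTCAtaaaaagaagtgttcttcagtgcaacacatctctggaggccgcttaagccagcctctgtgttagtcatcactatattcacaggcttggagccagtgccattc

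Genes of epidermal differentiation were among the largest increases, from very low levels. Of 38 tested, 3 rose and 0 fell, beside 3.75% and 2.65% of all genes tested. The list median was 1.19 on the log2 scale, or 0.28 without irradiated library 1. HEPHL1, a ferroxidase related to hephaestin, had 6.99 and 18.2 CPM in irradiated cells against 0 and 0.101 CPM in untreated cells (log2 fold change 7.86 ± 0.99, adjusted p = 0.00564). S100A7, psoriasin, had 10.4 and 8.92 CPM in irradiated cells against 0.293 and 0.202 CPM in untreated cells (log2 fold change 5.21 ± 1.28, adjusted p = 0.0459). LCE3D, a late cornified envelope gene, had 1.04 and 2.23 CPM in irradiated cells against 0.146 and 0 CPM in untreated cells. Reads of S100A7 and LCE3D may be shared with near-identical paralogs. S100A7 did not pass with the replicate number as a block or when any 1 of the 4 libraries was left out (adjusted p up to 0.171), nor did LCE3D without irradiated library 2 or either untreated library (up to 0.124), and 1 gene of the list rose without irradiated library 2 or without either untreated library. SERPINB7, a serpin of the epidermis, had 20 and 18.4 CPM in irradiated cells against 1.24 and 0.809 CPM in untreated cells (log2 fold change 4.18 ± 0.60, adjusted p = 0.00877). In p53 KO cells S100A7 had 51.5 and 60.6 CPM against 301 and 307 CPM in WT cells, and HEPHL1 had 14.9 and 14.6 CPM against 93.8 and 93.8 CPM in WT cells. The list as a whole was mixed there: of 37 tested, 14 were lower and 16 were higher in p53 KO cells. Involucrin (IVL), a cornified envelope protein, had 7.24 and 5.49 CPM in irradiated cells against 0.805 and 0.607 CPM in untreated cells and did not pass (adjusted p = 0.176). SPRR1B, a small proline-rich envelope protein, had 153 and 39.3 CPM in irradiated cells against 128 and 40 CPM in untreated cells, so that it followed the library number and not the treatment.

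Several further genes went up from close to no reads. ROBO2, an axon guidance receptor, had 0.675 and 2.06 CPM in irradiated cells and no count in untreated cells, at least 10.7-fold higher. NXF3, an mRNA export factor relative, had 1.1 and 1.37 CPM in irradiated cells and none in untreated cells, at least 9.72-fold higher. ST8SIA5, a sialyltransferase, had 0.859 and 1.54 CPM in irradiated cells and none in untreated cells, at least 9.43-fold higher. ST8SIA5 went the other way from most in the second experiment, with 0.316 and 0.197 CPM in p53 KO cells and 0 counts in WT cells 3 days after the same dose. LTF, lactoferrin, had 4.97 and 2.06 CPM in irradiated cells against 0.0732 and 0 CPM in untreated cells. NLRP3, an inflammasome sensor, had 3.87 and 7.2 CPM in irradiated cells against 0.146 and 0.202 CPM in untreated cells (log2 fold change 4.89 ± 0.79, adjusted p = 0.0109). PDCD1LG2, the PD-1 ligand PD-L2, had 1.66 and 2.23 CPM in irradiated cells against 0.0732 and 0.101 CPM in untreated cells (log2 fold change 4.33 ± 0.54, adjusted p = 0.00452). ATP6V0A4, a proton pump subunit, had 1.78 and 3.09 CPM in irradiated cells against 0 and 0.101 CPM in untreated cells. The untreated values of these genes correspond to 2 counts or fewer a library, and their fold changes are large but imprecise. LTF did not pass without irradiated library 1 or either untreated library (adjusted p up to 0.0781), NLRP3 without untreated library 1 (0.0611), ST8SIA5 without irradiated library 2 or untreated library 1 (up to 0.0729), and NXF3 when any 1 of the 4 libraries was left out (up to 0.0854).

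Among 31 lysosome genes, 5 rose and 0 fell, and the list median was 0.24. GM2A, the GM2 ganglioside activator, had 439 and 356 CPM in irradiated cells against 173 and 226 CPM in untreated cells (log2 fold change 0.99 ± 0.20, adjusted p = 0.021). LAMP1, a lysosomal membrane protein, had 245 and 267 CPM in irradiated cells against 138 and 176 CPM in untreated cells (log2 fold change 0.71 ± 0.12, adjusted p = 0.0125). The proton pump subunits ATP6V0D1 and ATP6V1H also rose. GM2A shares a merged locus with CCDC69. Without irradiated library 2 the adjusted p was 0.0763 for LAMP1 and 0.055 for GM2A, which also lost its call without irradiated library 1 (0.088) or untreated library 1 (0.0807). The number that rose was 2 without irradiated library 1 or untreated library 1, 1 without irradiated library 2 and 10 without untreated library 2. Of the 31 lysosome genes, 27 were lower and 2 higher in p53 KO than in WT cells, beside 29.4% and 27.3% of genes tested in both experiments.

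The libraries were poly-A selected, so replication-dependent histone genes appear only through their polyadenylated transcripts. The list of histone genes is not confined to replication-dependent ones and holds the linker histone H1FX. Of 17 tested, 2 rose, 1 fell, and the median was 1.58, or 0.75 without irradiated library 1. HIST1H2AC had 43.7 and 24.4 CPM in irradiated cells against 12.7 and 12.6 CPM in untreated cells, and HIST2H2BE had 11.6 and 8.06 CPM in irradiated cells against 3 and 3.74 CPM in untreated cells. H1FX, a linker histone, fell, with 26.6 and 27.3 CPM in irradiated cells against 58.2 and 57.2 CPM in untreated cells (log2 fold change -1.10 ± 0.18, adjusted p = 0.0111). No histone gene rose without irradiated library 1 or untreated library 1 (0 genes), 1 rose without irradiated library 2, and H1FX had an adjusted p of 0.0523 without irradiated library 1 and 0.0663 without irradiated library 2. HIST1H2AC reached up to 0.142 and HIST2H2BE up to 0.167 when 1 library was left out.

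Genes that fell had a smaller median fold change than those that rose and spanned signalling, metabolism and ribosome production. The filter kept genes by their counts in any group, and only the untreated group was not irradiated. Genes nearly absent from untreated cells could enter more easily than the reverse, and the part of this in the medians was not tested. EGR1, an immediate-early transcription factor induced by growth factors, lies alone at its locus at chr5:137801179-137805004 (hg19). It had 45 and 44.1 CPM in irradiated cells against 243 and 145 CPM in untreated cells (log2 fold change -2.12 ± 0.25, adjusted p = 0.00403). In the second experiment EGR1 had 45.9 and 45.5 CPM in p53 KO cells and 33 and 31.5 CPM in WT cells. Its promoter is printed because it holds matches to the CArG box, the element of serum response factor through which serum and growth factors act on EGR1. The box was searched on both strands, and 1.29% of the 35116 windows hold it. The sequence is the 200 bases before the start, at chr5:138465279-138465478 on the plus strand of GRCh38.p14, with the matches at 105 and 83 bases before the start in capitals.
EGR1: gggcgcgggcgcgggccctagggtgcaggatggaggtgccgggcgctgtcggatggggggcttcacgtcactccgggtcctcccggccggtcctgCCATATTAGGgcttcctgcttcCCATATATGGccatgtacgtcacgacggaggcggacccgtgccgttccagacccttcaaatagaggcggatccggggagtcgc

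The 12 lower genes with the smallest p and a mean of at least 10 CPM were of mixed kinds: EGR1, the enzymes PC, EPHX1 and ALDH3A2, the nuclear factors PIR, NFIL3 and OSER1, the RNA-related genes TIAL1, PRPF3, TARBP1 and PCID2, and the ubiquitin ligase RNF220. TIAL1, an RNA-binding protein of stress granules, had 86.8 and 87.3 CPM in irradiated cells against 135 and 147 CPM in untreated cells (log2 fold change -0.69 ± 0.08, adjusted p = 0.00292). PCID2, an mRNA export factor, had 51.9 and 53.3 CPM in irradiated cells against 85.7 and 88.3 CPM in untreated cells (log2 fold change -0.73 ± 0.09, adjusted p = 0.00552). Both were tight within each group. PC, pyruvate carboxylase, had 55.3 and 50.1 CPM in irradiated cells against 138 and 170.4 CPM in untreated cells (log2 fold change -1.55 ± 0.18, adjusted p = 0.00287). EPHX1, microsomal epoxide hydrolase, had 74.7 and 76.7 CPM in irradiated cells against 166 and 201 CPM in untreated cells (log2 fold change -1.28 ± 0.16, adjusted p = 0.00452). ALDH3A2, a fatty aldehyde dehydrogenase, had 153 and 137 CPM in irradiated cells against 248 and 266 CPM in untreated cells (log2 fold change -0.82 ± 0.11, adjusted p = 0.00564). The groups stood well apart for all 3 enzymes. GFPT2, an enzyme of the hexosamine pathway, had 16.3 and 31.6 CPM in irradiated cells against 86.5 and 94.4 CPM in untreated cells (log2 fold change -1.95 ± 0.42), but did not pass when any 1 of the 4 libraries was left out (adjusted p up to 0.117). LEAP2, a secreted antimicrobial peptide, had 0.675 and 0.858 CPM in irradiated cells against 4.47 and 4.95 CPM in untreated cells (log2 fold change -2.65 ± 0.39, adjusted p = 0.00834, or 0.0537 without irradiated library 1). NFIL3 and DBP, transcription factors of the circadian output, both fell. NFIL3 had 20.4 and 23 CPM in irradiated cells against 51.1 and 64.6 CPM in untreated cells, and DBP had 2.82 and 2.4 CPM in irradiated cells against 7.17 and 10.3 CPM in untreated cells. DBP had an adjusted p of 0.0624 without irradiated library 1 and 0.0957 without irradiated library 2. PIR, an iron-dependent nuclear protein, had 16.9 and 14.8 CPM in irradiated cells against 44.4 and 46.1 CPM in untreated cells.

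Of 18 tested targets of the glucocorticoid receptor, 3 fell and 0 rose, with a median of -0.61. MT1X, a metallothionein, had 58.5 and 71.2 CPM in irradiated cells against 147 and 271 CPM in untreated cells (log2 fold change -1.69 ± 0.31, adjusted p = 0.0185). CEBPD, a transcription factor of the acute phase response, had 42.8 and 31.7 CPM in irradiated cells against 82.6 and 99.3 CPM in untreated cells (log2 fold change -1.27 ± 0.22, adjusted p = 0.0129). KLF15 had 0.429 and 0.172 CPM in irradiated cells against 1.17 and 4.25 CPM in untreated cells. Defining targets did not pass: TSC22D3 (GILZ) had 136 and 72.9 CPM in irradiated cells against 237 and 248 CPM in untreated cells, and FKBP5 had 822 and 597 CPM in irradiated cells against 1254 and 938 CPM in untreated cells, each with an adjusted p of 0.0702. For TSC22D3 and FKBP5 the groups did not overlap. PER1 had 117 and 110.0 CPM in irradiated cells against 143 and 123 CPM in untreated cells, and SGK1 had 39 and 40 CPM in irradiated cells against 32.6 and 35 CPM in untreated cells, and neither passed. No target in the list fell without irradiated library 2 (0 genes), where the adjusted p was 0.0847 for MT1X and for CEBPD and 0.173 for KLF15. MT1X also lost its call without irradiated library 1 (0.0859), and KLF15 without irradiated library 1 (0.105) or untreated library 2 (0.143). Hydrocortisone was in the medium of all cells, and the time since the last change of medium is not given for the untreated cells, so its part in these values was not tested.

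Ribosome biogenesis genes were lower by small amounts. Of 28 tested, 8 fell and 0 rose, the median was -0.24, and 2 had a positive value. FBL, fibrillarin, the methyltransferase of ribosomal RNA, had 182 and 186 CPM in irradiated cells against 245 and 289 CPM in untreated cells (log2 fold change -0.54 ± 0.11, adjusted p = 0.0233). NPM1, nucleophosmin, had 1214 and 1199.5 CPM in irradiated cells against 1666 and 2127 CPM in untreated cells (log2 fold change -0.65 ± 0.16, adjusted p = 0.041). RRP9, a component of the box C/D particle for U3, had 36.4 and 33.1 CPM in irradiated cells against 65 and 53.6 CPM in untreated cells (log2 fold change -0.77 ± 0.13, adjusted p = 0.0119). NOP2, NOP58, WDR12, POLR1C and GNL3 fell as well. The number that fell was 4 without irradiated library 1, 0 without irradiated library 2 and 3 without untreated library 1. Without irradiated library 2 the adjusted p was 0.113 for FBL, 0.181 for NPM1 and 0.0842 for RRP9. Of the 28 genes, 22 were higher and 2 lower in p53 KO than in WT cells, beside 27.3% and 29.4% of genes tested in both experiments. Reads of NPM1 may be shared with its pseudogenes.

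**Figure D3:**
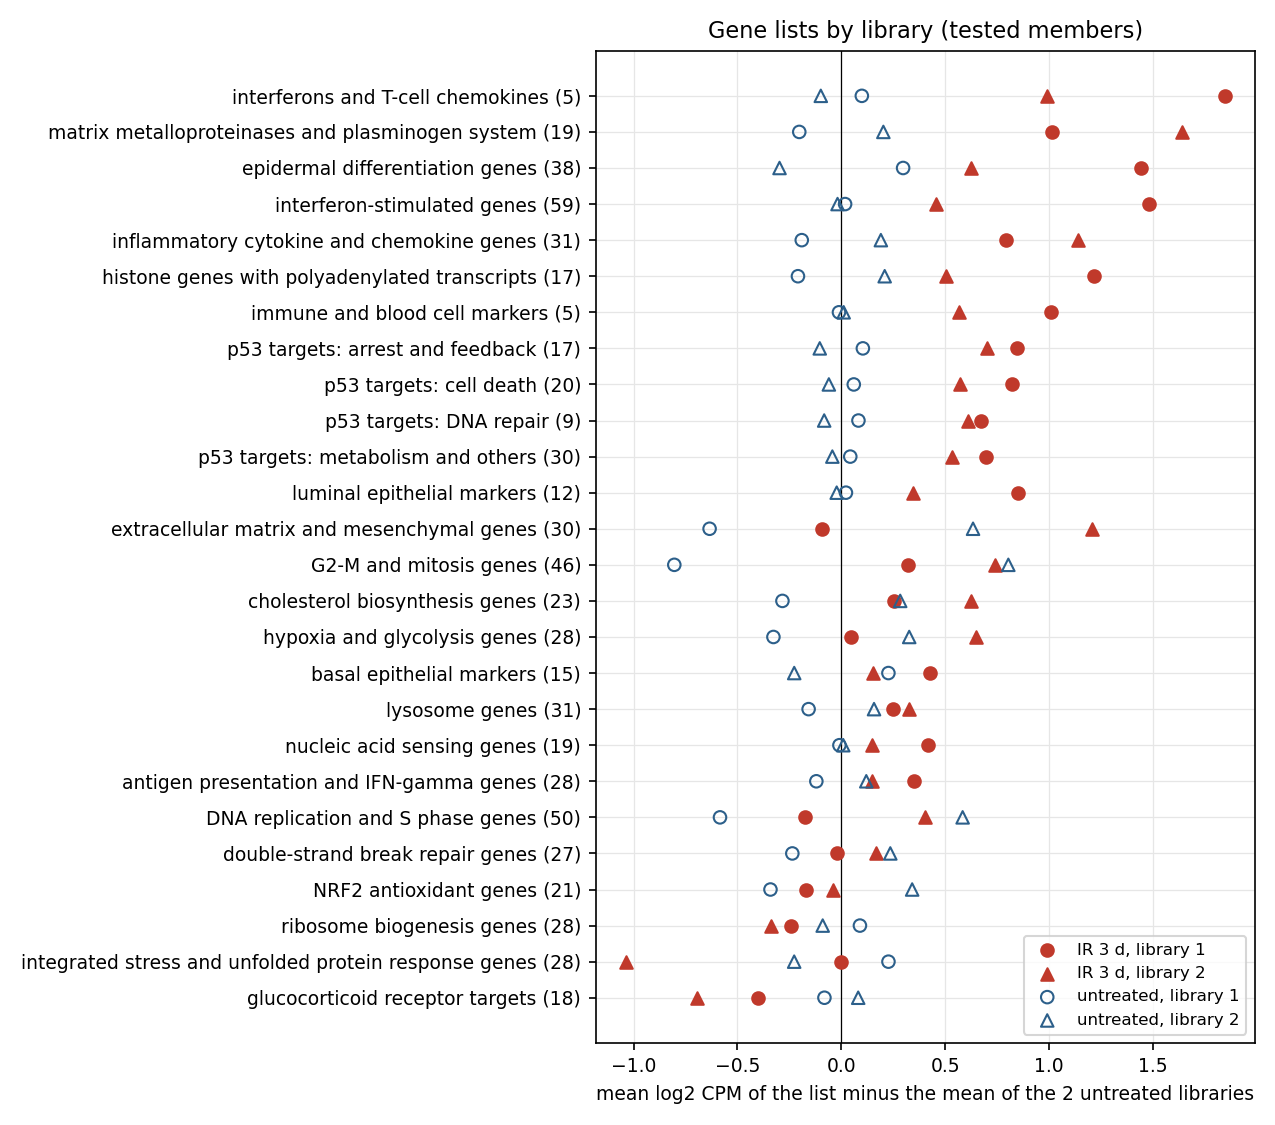
Mean log2 CPM of the tested members of 26 gene lists in each of the 4 WT MCF10A libraries, minus the mean of the 2 untreated libraries; filled symbols are 3 days after 10 Gy, open symbols untreated, circles library 1, triangles library 2, and the number of genes is in brackets. The p53 lists keep both groups tight and apart, while the G2-M, S phase and extracellular matrix lists differ between libraries 1 and 2 as much as between groups.

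Cell cycle genes did not separate the groups. Of 46 G2-M and mitosis genes, 0 rose and 1 fell, and of 50 genes of DNA replication and S phase, 0 rose and 0 fell. At an unadjusted p below 0.05 in edgeR the G2-M counts were again 0 and 1 and the S phase counts 0 and 0, and DESeq2 gave the same 4 counts at its adjusted threshold. Over all genes the shares at the unadjusted threshold were 12.5% higher and 11.8% lower. CDC25B, a phosphatase that activates CDK1, was the gene that fell, with 441 and 308 CPM in irradiated cells against 761 and 638 CPM in untreated cells (log2 fold change -0.90 ± 0.19, adjusted p = 0.0271, or 0.155 without irradiated library 2 and 0.0904 without untreated library 1). MKI67, which encodes the proliferation marker Ki-67, had 52.5 and 97.4 CPM in irradiated cells against 23.6 and 69.9 CPM in untreated cells (log2 fold change 0.68 ± 0.55, adjusted p = 0.501). CCNB1, cyclin B1, had 39.9 and 50.4 CPM in irradiated cells against 17.1 and 54.3 CPM in untreated cells (log2 fold change 0.34 ± 0.51, adjusted p = 0.726). TOP2A, topoisomerase II alpha, had 67 and 91.4 CPM in irradiated cells against 24.5 and 95.7 CPM in untreated cells (adjusted p = 0.732). For these 3 genes untreated library 1 was the lowest of the 4, and the other untreated library lay within the range of the irradiated ones or above it. The G2-M list as a whole shows the same, with a mean log2 CPM of 4.19 and 4.61 in irradiated cells against 3.06 and 4.67 in untreated cells. Its median log2 fold change was 0.35, but -0.27 without untreated library 1 and 1.48 without untreated library 2. Its direction was therefore set by which untreated library was used. The S phase list had a median of -0.03. Of its 50 genes, 5 lay lower and 1 higher in both irradiated libraries, beside 24.5% and 24% of all genes tested. In these bulk libraries fewer cells of a kind and less RNA per cell cannot be told apart. In the second experiment all 46 G2-M genes and all 50 S phase genes were higher in p53 KO than in WT cells. Over genes tested in both experiments, 27.3% were higher. CCNB1 had 272 and 286 CPM in p53 KO cells against 69.3 and 68.4 CPM in WT cells.

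Few interferon-stimulated genes passed at day 3, although most of their values were higher. Of 59 tested, 1 rose and 0 fell, beside 3.75% and 2.65% of all genes tested. Of the 59, 50 had a positive value, and the list median was 0.80. Both irradiated libraries lay above both untreated ones for 35 of the 59 and below them for 2, beside 24% and 24.5% of all genes. At an unadjusted p below 0.05 in edgeR, 20 were higher and 0 lower, beside 12.5% and 11.8% of all genes, and DESeq2 called 14 higher, beside 5.97% of all genes. The median was 0.29 without irradiated library 1 and 0.96 without irradiated library 2. IFIT1, an antiviral RNA-binding protein, had 32.8 and 7.55 CPM in irradiated cells against 0.805 and 0.607 CPM in untreated cells (log2 fold change 4.88 ± 1.32, adjusted p = 0.0601). ISG15, a ubiquitin-like modifier, had 20.1 and 6.52 CPM in irradiated cells against 2.64 and 3.44 CPM in untreated cells (adjusted p = 0.165). MX1, an antiviral GTPase, had 20.2 and 2.74 CPM in irradiated cells against 2.64 and 1.52 CPM in untreated cells (adjusted p = 0.184). Irradiated library 1 was the higher for all 3 genes, and for MX1 irradiated library 2 was close to untreated library 1. DDX58, the RNA sensor RIG-I, had 44.8 and 19 CPM in irradiated cells against 11.1 and 9.81 CPM in untreated cells (adjusted p = 0.161). ZC3HAV1, the antiviral protein ZAP, was the gene that rose, with 104 and 91.4 CPM in irradiated cells against 49.9 and 57.5 CPM in untreated cells (log2 fold change 0.86 ± 0.17, adjusted p = 0.0185). ZC3HAV1 did not pass without irradiated library 1 (0.079), irradiated library 2 (0.0576) or untreated library 1 (0.0693).

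Interferon and chemokine genes themselves were near 0. IFNB1 and CXCL9 had 0 counts in all 4 libraries. CXCL10, a T-cell chemokine, had 0.92 and 0.343 CPM in irradiated cells against 0.0732 and 0 CPM in untreated cells, and CXCL11 had 1.72 and 0.172 CPM in irradiated cells against 0.0732 and 0 CPM in untreated cells. Of the 5 tested genes of this list 0 passed in edgeR or DESeq2, and 3 were higher at an unadjusted p below 0.05, beside 12.5% of all genes. Of 31 tested inflammatory cytokine and chemokine genes, 1 rose and 0 fell, beside 3.75% and 2.65% of all genes tested, and the median was 0.94. The gene that rose was the complement component C3, with 3875 and 3983 CPM in irradiated cells against 2507 and 2627 CPM in untreated cells (log2 fold change 0.61 ± 0.13, adjusted p = 0.0241). C3 did not pass without irradiated library 1 (0.0763), irradiated library 2 (0.117) or untreated library 1 (0.0645). CXCL8, which encodes interleukin 8, had 43.9 and 158 CPM in irradiated cells against 10.8 and 58.3 CPM in untreated cells (adjusted p = 0.374). IL1B had 87.9 and 125 CPM in irradiated cells against 39.7 and 25.4 CPM in untreated cells (adjusted p = 0.079). IL6 had 0.307 and 2.06 CPM in irradiated cells against 0.0732 and 1.21 CPM in untreated cells (adjusted p = 0.791). CXCL8 and IL6 were higher in library 2 of each group. DESeq2 called 7 genes of the inflammatory list higher and 1 lower, beside 5.97% and 3.49% of genes with an adjusted p. At an unadjusted p below 0.05 in edgeR, 11 were higher and 3 lower, beside 12.5% and 11.8% of all genes.

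**Figure D4:**
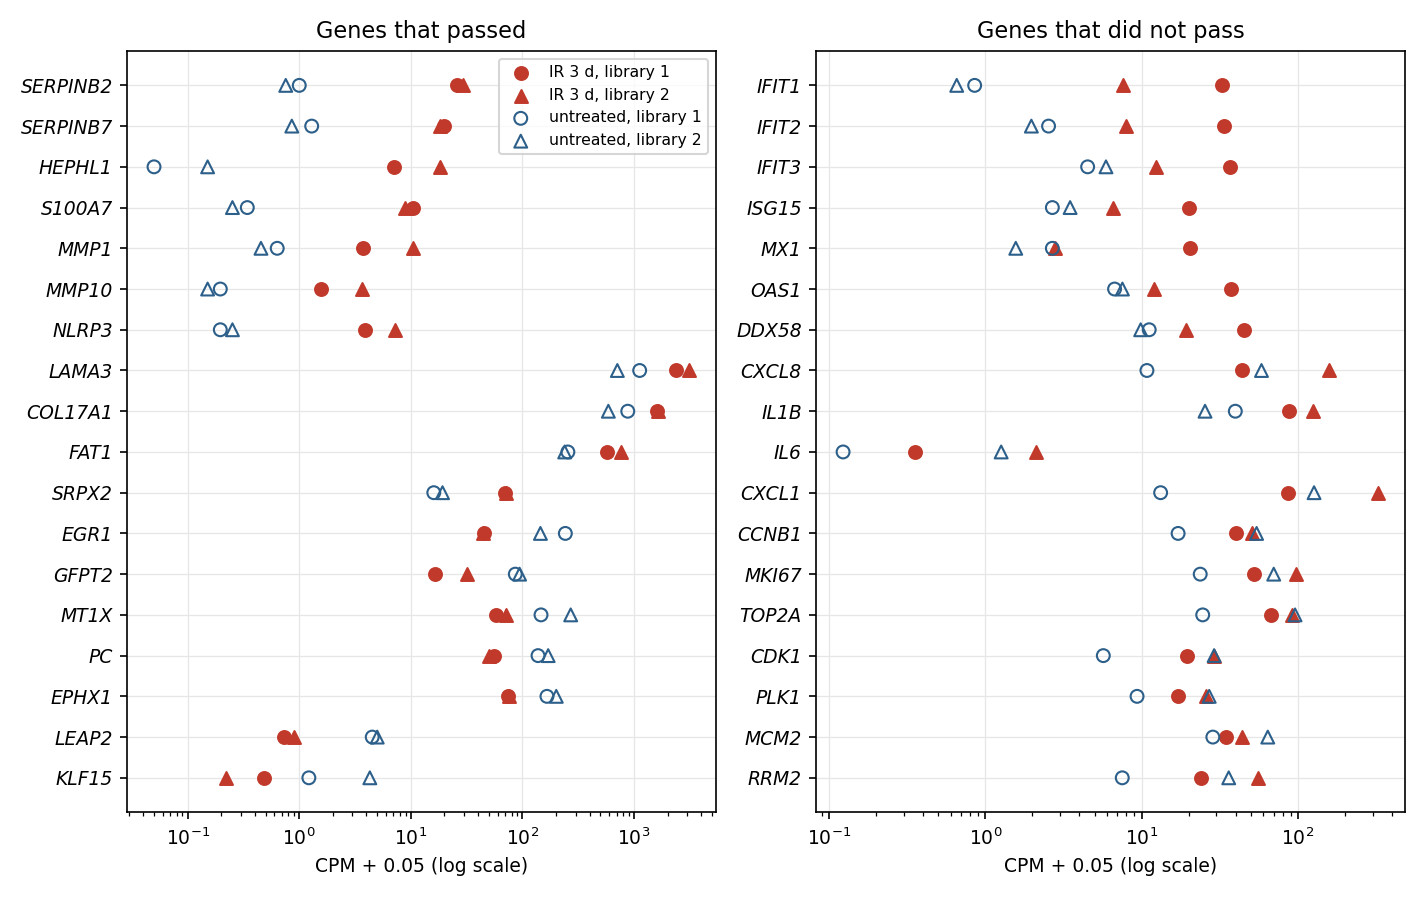
CPM plus 0.05 on a log axis for genes that passed (left) and that did not (right), with filled symbols for WT MCF10A 3 days after 10 Gy, open symbols for untreated cells, circles for library 1 and triangles for library 2. On the left the filled and open symbols do not overlap, as for all 972 genes that passed, so this follows from the choice of genes. On the right the 2 libraries of a group often lie as far apart as the groups, as for CXCL8, IL6 and MKI67.

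Few genes passed between day 5 and day 3, and the interferon-stimulated list stood higher at day 5. In WT MCF10A cells 5 days after 10 Gy, also with DMSO, 2 genes were higher and 1 was lower than at day 3, which is 0.0132% and 0.00658% of all genes tested. DESeq2 called 296 higher and 135 lower, and 2075 genes had an unadjusted p below 0.05 in edgeR. None of the 570 higher or 402 lower genes of day 3 passed in this contrast (0 and 0 genes), and their median log2 fold changes of day 5 over day 3 were 0.16 and -0.09; the day 3 libraries enter both contrasts. The 3 genes were PIK3R3, with 71.7 and 54 CPM at day 5 against 31.2 and 30.4 CPM at day 3, STAT2, a transducer of interferon signals, with 309 and 199.8 CPM at day 5 against 74.7 and 66.4 CPM at day 3, and HMGA1, with 134 and 174 CPM at day 5 against 444 and 527 CPM at day 3. The interferon-stimulated list had a mean log2 CPM of 3.48 and 3.44 in untreated cells, 4.94 and 3.91 at day 3 and 7.97 and 6.50 at day 5. IFIT1 had 1138 and 279 CPM at day 5 and 32.8 and 7.55 CPM at day 3, and library 1 was again the higher. CDKN1A had 1243 and 970.4 CPM at day 5 and 782 and 835 CPM at day 3.

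The labelled cell type was checked against marker genes. Basal keratins KRT5 and KRT14 and the luminal keratin KRT18 were all present, the last with 322 and 333 CPM in irradiated cells against 338 and 337 CPM in untreated cells. Vimentin (VIM), common in cultured epithelium, had 405 and 786 CPM in irradiated cells against 406 and 1060.1 CPM in untreated cells. COL3A1, a fibroblast collagen, had 0 counts in all 4 libraries. The levels of the other mesenchymal markers planned for this check are not given here, so COL3A1 does not stand for them. Of 20 listed immune and blood cell markers, 19 were found and 5 had enough counts to be tested. CD3D, CD2, MS4A1, LYZ, HBB, HBA1 and HBA2 had 0 counts in all 4 libraries. PTPRC, the pan-leukocyte marker CD45, had 0.184 and 0 CPM in irradiated cells against 0.0732 and 0 CPM in untreated cells. The mean log2 CPM of the 5 tested markers was 3.24 and 2.79 in irradiated cells against 2.22 and 2.24 in untreated cells. ITGAM, an integrin chain of myeloid cells, was the 1 that rose, with 3.07 and 1.2 CPM in irradiated cells against 0.439 and 0.404 CPM in untreated cells. The list mean lies above the level of ITGAM, so other tested markers, not named here, were higher. The genes with 0 counts do not stand for the whole list. ITGAM did not pass without irradiated library 1 (0.221), untreated library 1 (0.0645) or untreated library 2 (0.0505).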

How the data were processed

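Poly-A-selected RNA of MCF10A cells was sequenced with standard Illumina libraries, per the labels' protocols. Tools listed in the submitters' processing notes are STAR, Cuffnorm, DESeq2, bcl2fastq and FastQC, and the build is hg19; roles and versions are not given in the sources used here. The authors deposited 1 table with an estimated count per gene and library and 1 with FPKM values for the 60332 genes; of the estimated counts, 96.56% to 97.28% were whole in each library, and the rest were rounded. Genes at merged loci in the table cover overlapping transcripts.

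The estimated counts were fitted in R 4.3.3 with edgeR 4.0.16 (robust quasi-likelihood F test, TMM factors, filterByExpr by group, Benjamini-Hochberg adjustment over all 15190 genes tested). The fit held the 14 libraries of the first MCF10A experiment with group as the only term and left 7 residual degrees of freedom. The second experiment was fitted in the same way on 12 libraries and 16632 genes. A standard error is the log2 fold change divided by the square root of F. Levels are CPM on TMM-scaled totals; log2 CPM in list means uses a prior count of 2. A floor of 3 counts over a group stands for a group with no count. These floors cover counting error only. The fits were also run on simulated independent counts with the same dispersion of a gene in every group. Those data lack the unequal spread of the groups and the correlation of same-numbered libraries. They therefore do not bear on how the counts of genes depend on the libraries used.

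The members and the 26 gene lists (708 genes, 705 found) were chosen with earlier results of these data known. Named genes were, in each direction, as many as 4 called members of each list, 12 called genes by size of fold change and 12 by p, fixed anchor genes, and the 8 per direction called the opposite way in p53 KO cells; other list members are named where a list is described. Alternatives were DESeq2 1.42.0, RLE size factors, other filters, fits on fewer libraries, a replicate block, leaving out each library, and limma 3.58.1 on log2(FPKM + 0.1) and log2(FPKM + 1) of the deposited FPKM values. The other MCF10A groups entered the fits but are not described, and the hTERT RPE-1 libraries were not used here. A few list members are not reported here.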

Additional observations from a re-analysis of the deposited data

How the results depend on the processing

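Irradiated over untreated cells gave 570 genes higher and 402 lower. Both counts stayed within 1.5 times with DESeq2 (854 and 499), RLE size factors (619 and 355) and a filter of at least 1 CPM in 2 libraries (580 and 401). They were 1353 and 735 without a filter on low counts, 6 and 0 with the 8 WT libraries only, 1 and 0 with the 4 libraries only, 206 and 104 with limma on log2(FPKM + 0.1), and 173 and 119 with limma on log2(FPKM + 1). Leaving out 1 library gave 124 to 453 higher and 18 to 373 lower genes. Of 89 named genes that passed, 0 passed under every alternative. None of these 89 changed sign in an alternative that gave it a value, and named genes that did not pass are not covered by this. The 4-library and 8-library fits estimate the spread from fewer libraries, and without the KO groups. The mean chi-square between libraries was 2.95 in cGAS KO, 3.38 in XRCC4 KO and 27.6 in STING KO cells. In the WT groups it was 21.5 to 45.1. Why the counts differ between fits was not tested.

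Day 5 over day 3 gave 2 higher and 1 lower gene, against 296 and 135 with DESeq2, 797 and 317 without a filter, 0 and 0 with the 8 WT or the 4 libraries only, 14 and 7 with limma on log2(FPKM + 0.1), 29 and 10 with limma on log2(FPKM + 1), and 0 to 186 higher and 0 to 20 lower when 1 library was left out. The cause was not tested. For p53 KO over WT, with 4290 genes higher and 4471 lower, every alternative run stayed within 1.5 times. Of the genes higher after irradiation, the share lower in p53 KO cells was 67.5%, and 0% in the 4-library fit, which has 1 gene.

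The replicate numbers could be used as a block. Deviations of same-numbered libraries correlated across genes with r = 0.41 between irradiated and untreated cells, and 6 of 6 pairs of WT groups lay above 0.1 (0.245 to 0.439), against 7 of all 21 pairs of groups in the first experiment and 0 of 15 in the second. No label says what a number marks and each group has only 2 numbers, so this is a hint from the data at a pairing of the WT libraries and not a paired design. With the replicate block, 583 genes were higher and 404 lower after irradiation, and 98 and 14 for day 5 over day 3. Of the 89 named genes that passed, 4 lost their call with the block: MMP3, SERPINB2, S100A7 and ATF5. With the block and the 8 WT libraries only, a fit added after the data were seen, the numbers were 302 and 132, and 111 and 13 for day 5 over day 3.

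Irradiated library 2 had the fewest counts of the 4 (5590061), so its low values are the least precise.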

Other observations

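Lists not described above gave few calls, and their values are given without explanation. Over all genes tested, 3.75% rose and 2.65% fell, so a single call is not read as a result about a list. Of 28 genes of the integrated stress and unfolded protein response, 1 rose and 1 fell, with a median of -0.55 on the log2 scale. ATF5, a transcription factor of the response, had 46.2 and 53 CPM in irradiated cells against 29.4 and 36.5 CPM in untreated cells (log2 fold change 0.59 ± 0.15, adjusted p = 0.0445), and DDIT4, an inhibitor of mTORC1, had 836 and 615 CPM in irradiated cells against 1245 and 1182 CPM in untreated cells (log2 fold change -0.74 ± 0.17, adjusted p = 0.0311). The adjusted p of ATF5 reached 0.205 and that of DDIT4 0.186 without irradiated library 2. Amino acid synthesis genes followed the library as much as the treatment: PHGDH, of serine synthesis, had 99.6 and 13 CPM in irradiated cells against 206 and 125 CPM in untreated cells, and ASNS, asparagine synthetase, had 251 and 29 CPM in irradiated cells against 379.8 and 172 CPM in untreated cells. PHGDH and ASNS did not pass (adjusted p = 0.386 and 0.545), and for both the lowest of the 4 libraries was irradiated library 2.

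Of 23 cholesterol biosynthesis genes, 0 rose and 0 fell at the adjusted threshold in edgeR, and 2 rose in DESeq2. At an unadjusted p below 0.05 in edgeR, 3 were higher and 0 lower, beside 12.5% and 11.8% of all genes tested. Of the 23, 22 had a positive value, with a median of 0.39, or 0.75 without untreated library 2. Beside each single call in the lists that follow, 3.75% of all genes tested rose and 2.65% fell. Of 28 hypoxia and glycolysis genes, 1 rose: ADM, adrenomedullin, with 14.2 and 27.8 CPM in irradiated cells against 4.54 and 9.3 CPM in untreated cells (adjusted p = 0.0286, or 0.124 without irradiated library 2 and 0.0906 without untreated library 1). Of 21 NRF2 antioxidant genes, 1 fell: TKT, transketolase, with 789.9 and 846 CPM in irradiated cells against 1105 and 1603 CPM in untreated cells (adjusted p = 0.0274, or up to 0.114 when 1 library was left out). Of 27 double-strand break repair genes, 1 fell: NHEJ1, the end-joining factor XLF, with 13.1 and 10.3 CPM in irradiated cells against 21.3 and 18.2 CPM in untreated cells (adjusted p = 0.043, or up to 0.22 when 1 library was left out). Of 12 luminal epithelial markers, 1 rose: FOXA1, with 10 and 13.2 CPM in irradiated cells against 4.47 and 4.55 CPM in untreated cells (adjusted p = 0.0209, or up to 0.108 when 1 library was left out). Of 28 tested genes of antigen presentation, 1 rose, PDCD1LG2, and of 19 genes of nucleic acid sensing, 0 rose and 0 fell in edgeR, 3 were higher and 1 lower at an unadjusted p below 0.05, again beside 12.5% and 11.8% of all genes tested, and DESeq2 called 1 higher.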
